A study of Rattus norvegicus with 4 samples.

Results

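Deubiquitinating enzymes are the proteases that take ubiquitin off proteins, and their transcripts were followed here in ventricular heart muscle cells of newborn rats. The genes were found by symbol: all USP, UCHL, OTUB, OTUD and JOSD genes together with Bap1, Cyld, Atxn3, Yod1, Zranb1, Vcpip1, Brcc3, Stambp and Stambpl1. This gave 75 of the 18699 genes in the table. At least 2 of these do not encode a working ubiquitin protease. Those listed here are Usp6nl, a GTPase-activating protein for Rab proteins, and Usp39, a splicing factor whose protease fold is regarded as inactive. The cells were primary wild-type (WT) cardiomyocytes of 1 to 3 day old Sprague Dawley rats, grown with 15% serum and 0.1 mM bromodeoxyuridine, an agent that holds back dividing non-muscle cells. Cells of 2 libraries had been given 1 µM carfilzomib and those of the other 2 vehicle, all for 24 h. Carfilzomib blocks the chymotrypsin-like site of the proteasome irreversibly and is used against multiple myeloma, where harm to the heart is a known side effect.

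Ubiquitin is attached to proteins by a cascade of enzymes and marks many of them for the proteasome. Deubiquitinating enzymes reverse the mark, trim chains at the entrance of the proteasome so that ubiquitin is recovered, and release free ubiquitin from chains and precursors. Most belong to the USP family, and smaller families carry UCH, OTU, Josephin or zinc-dependent JAMM domains. In many cell types, blocking the proteasome is known to set off a transcriptional rise of proteasome genes through NRF1, a factor that binds antioxidant response elements.

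The promoters of the 4 genes that rose most are shown because the search for that element, described further on, refers to them. Each holds 250 bases before and 50 bases after the annotated start of transcription, from RefSeq, with any TGACNNNGC or its reverse complement in capitals.
Uchl1 (GRCr8, chr14:41849368-41849667, minus strand): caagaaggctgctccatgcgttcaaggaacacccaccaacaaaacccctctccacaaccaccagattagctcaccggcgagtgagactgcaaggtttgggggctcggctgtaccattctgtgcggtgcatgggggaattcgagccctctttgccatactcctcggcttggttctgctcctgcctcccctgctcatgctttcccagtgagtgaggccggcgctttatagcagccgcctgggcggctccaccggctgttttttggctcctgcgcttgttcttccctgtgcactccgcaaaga
Usp14 (GRCr8, chr18:1330287-1330586, minus strand): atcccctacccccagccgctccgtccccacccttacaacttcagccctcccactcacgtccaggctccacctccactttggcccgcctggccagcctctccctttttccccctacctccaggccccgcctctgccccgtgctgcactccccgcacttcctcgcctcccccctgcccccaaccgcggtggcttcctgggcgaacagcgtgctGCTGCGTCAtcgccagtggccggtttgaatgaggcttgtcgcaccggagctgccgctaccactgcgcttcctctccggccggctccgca
Usp5 (GRCr8, chr4:159320907-159321206, minus strand): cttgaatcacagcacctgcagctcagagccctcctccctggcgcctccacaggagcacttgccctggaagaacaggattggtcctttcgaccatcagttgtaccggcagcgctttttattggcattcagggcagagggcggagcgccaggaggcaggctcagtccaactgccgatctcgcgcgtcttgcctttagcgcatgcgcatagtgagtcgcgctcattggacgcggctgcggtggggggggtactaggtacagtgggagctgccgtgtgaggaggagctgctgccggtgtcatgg
Usp20 (GRCr8, chr3:34670435-34670734, plus strand): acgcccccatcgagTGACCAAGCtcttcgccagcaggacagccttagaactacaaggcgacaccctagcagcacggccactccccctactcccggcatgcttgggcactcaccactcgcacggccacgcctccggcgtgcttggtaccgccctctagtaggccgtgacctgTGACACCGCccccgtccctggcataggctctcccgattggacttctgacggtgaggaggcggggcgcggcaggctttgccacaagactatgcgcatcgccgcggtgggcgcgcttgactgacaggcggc
The letters of the core element occurred once in the window of Usp14, with the first base at -39, and in that of Usp20 with first bases at -236 and -79. The windows of Uchl1 and Usp5 did not hold them.

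The libraries held 18655499 to 18884362 estimated counts each. The labels do not tell if libraries of the same group are separate cultures, so every p-value here reflects how far these libraries vary, and that variation may be technical. Markers of cardiomyocytes fell in 7 of 8 cases and summed to 10320 and 9818 CPM (counts scaled to a fixed library size, TMM-normalised) with carfilzomib and 31817 and 31806 CPM with vehicle. All 9 fibroblast markers fell, with sums of 15727 and 15007 CPM with carfilzomib and 27980 and 28517 CPM with vehicle. All 6 smooth muscle markers fell too, with sums of 1423 and 1387 CPM with carfilzomib and 3948 and 4096 CPM with vehicle. Of 6 endothelial markers 2, Tek and Egfl7, rose and 1 fell, while 4 lay below vehicle in both carfilzomib libraries. This list summed to 83.4 and 80.7 CPM with carfilzomib and 72.9 and 74.2 CPM with vehicle. Beside these counts, 30.6% of all 14519 genes tested were called higher and 30.1% lower (edgeR, adjusted p under 0.05). Both carfilzomib libraries lay above both vehicle libraries for 39.8% of them and below for 40%. In bulk RNA, fewer cells of a type and less RNA per cell cannot be told apart. The part of these marker shifts in the results on deubiquitinating enzymes was not tested.

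More deubiquitinating enzyme genes were called higher than lower after carfilzomib. Of the 70 genes that could be tested, 49 changed, which is 70%, against 60.7% of the 14519 genes tested in all (edgeR, adjusted p under 0.05 over all genes). Of these 39 rose, 55.7% of the 70 against 30.6% of all genes, and 10 fell, 14.3% against 30.1% of all genes. DESeq2 called 31 of the 70 higher and 6 lower, while it called 44.7% of all genes in either direction. It did not call the falls of Usp18, Otud7a, Usp31 and Usp21. With a replicate block 35 were higher, while 56.7% of all genes were called in either direction. In the edgeR fit without a block the median log2 fold change was 0.19, and that of all tested genes was 0.00. A rise of at least 0.5 on the log2 scale was called for 19 genes, 27.1% against 12.8% of all genes. A fall of that size was called for 4 genes, 5.71% against 17.3% of all genes. A rise of at least 1 was called for 6 genes, 8.57% against 3.74% of all genes: Uchl1, Usp14, Usp5, Usp20, Josd2 and Usp45. The genes that fell were Usp18, Otud7a, Otub2, Usp1, Usp36, Usp28, Usp31, Usp22, Usp6nl and Usp21. Both carfilzomib libraries lay above both vehicle libraries for 47 of the 70 genes, 67.1% against 39.8% of all genes. They lay below for 14 genes, 20% against 40% of all genes, and the groups overlapped for the remaining 9. Together the 75 genes took 0.647% and 0.651% of all counts with carfilzomib and 0.424% and 0.412% with vehicle. Leaving out Uchl1, the other 74 genes still summed to 5372 and 5443 CPM with carfilzomib and 4143 and 4018 CPM with vehicle. The 21 genes that did not pass had log2 fold changes between -0.55 and 0.20.

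**Figure D1:**
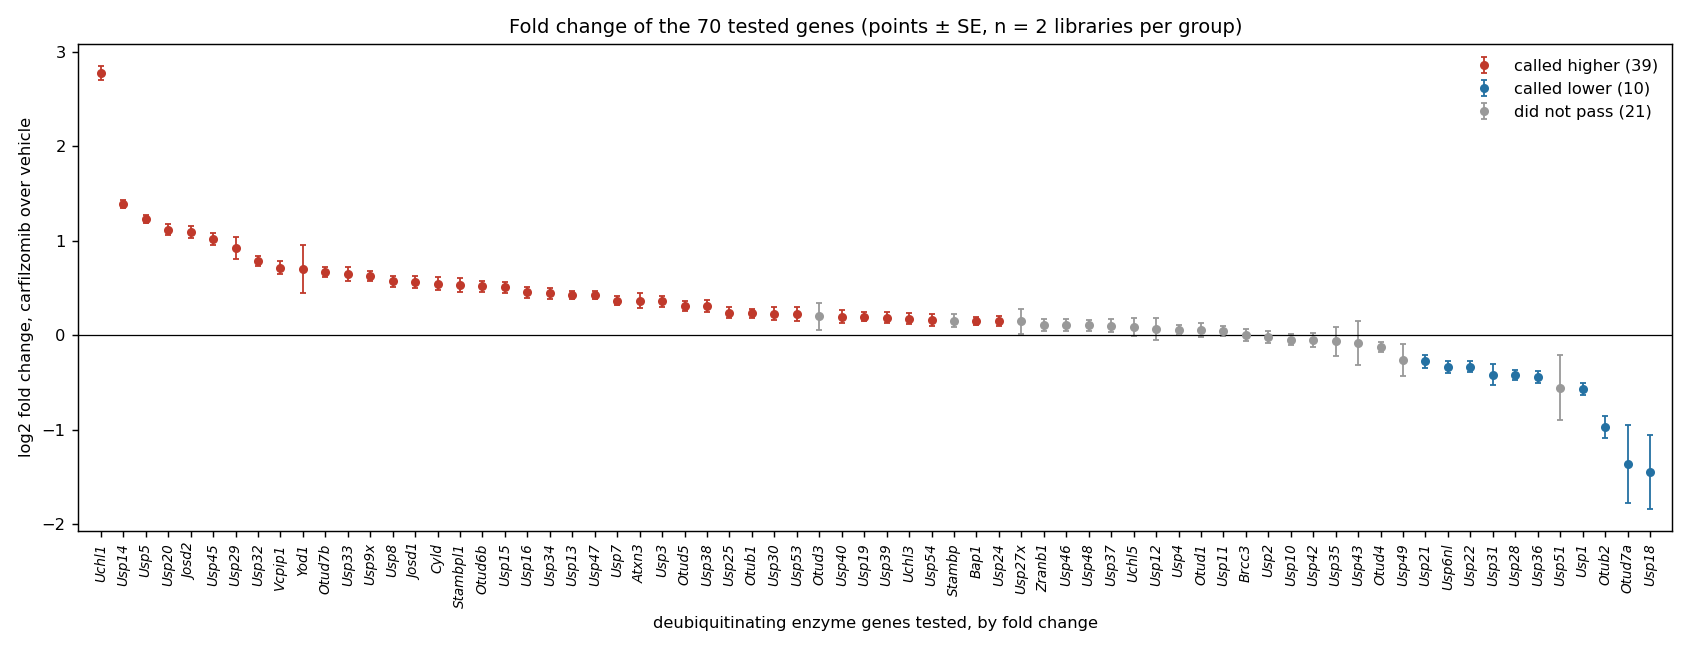
Log2 fold change of carfilzomib over vehicle (y axis) for each of the 70 tested genes (x axis, ordered by fold change), with the standard error of the fit from 2 libraries per group. Uchl1 stands at 2.77 above all others, 39 genes were called higher (red), 10 lower (blue) and 21 did not pass (grey).

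The 5 untested genes were at the edge of detection. Otud6a, Usp26, Usp44 and Usp50 had at most 3 counts in every library. Usp9y, the Y-linked copy of Usp9x, had 1 and 5 counts with carfilzomib and 0 and 0 counts with vehicle. No fold change is given for these genes. Otud7a, Usp43, Usp49 and Usp51 were tested but stayed under 1 FPKM in every library (fragments per kilobase and library size, a level per gene length computed by the authors).

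Uchl1 and Usp14 had the largest rises of the set. Uchl1 (gene ID 29545) encodes a small ubiquitin hydrolase known as an abundant protein of neurons. It was at 1029.7 and 992 CPM with carfilzomib and 136 and 160.0 CPM with vehicle. Both treated libraries lay far above both vehicle libraries. The level was 6.84-fold higher, a log2 fold change of 2.77 (SE 0.07, edgeR adjusted p 2.99e-08). In the authors' deposited table its log2 fold change was 2.78. Per length it was the most abundant of the 75 genes in both groups, at 1064 and 1026 FPKM with carfilzomib and 137 and 161 FPKM with vehicle. Of the summed FPKM of all 75 genes it made up 40.7% and 39.6% in the carfilzomib libraries, against 10.7% and 12.6% in the vehicle libraries. Uchl3, a close relative with a broader tissue range, had 44.0 and 43.0 CPM with carfilzomib and 38.5 and 38.6 CPM with vehicle. This was a log2 fold change of 0.17 (SE 0.06, edgeR adjusted p 0.02), and the adjusted p was over 0.05 whichever library was left out (0.0555 to 0.121) and 0.196 with DESeq2. Between Uchl1 and Uchl3 the log2 fold change differed by 2.60 (SE 0.10).

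Since Uchl1 is known as a neuronal gene, markers of neurons were read beside it. Of 12 such genes 6 could be tested, of which 2 rose and 4 fell, beside 30.6% higher and 30.1% lower of all tested genes. All 12 summed to 102 and 96.2 CPM with carfilzomib and 61.9 and 69.0 CPM with vehicle, most of it from Tubb3, a tubulin that other cells also carry. Tubb3 rose, with a log2 fold change of 0.80 (SE 0.07, edgeR adjusted p 7.96e-08), and Prph, a neuronal intermediate filament, rose with 0.34 (SE 0.11, edgeR adjusted p 0.0122). Syt1, Elavl4, Gap43 and Dbh fell by 2.19, 1.86, 1.20 and 0.58 on the log2 scale (SE 0.59, 0.51, 0.38 and 0.18). Syt1, Elavl4 and Gap43 rest on few counts. Syt1 had 6 and 1 counts with carfilzomib and 14 and 18 counts with vehicle. Elavl4 had 4 and 4 counts with carfilzomib and 16 and 13 counts with vehicle. Gap43 had 14 and 9 counts with carfilzomib and 21 and 31 counts with vehicle. Among the untested markers, Elavl3, Rbfox3 and Th stayed at or under 0.325 CPM in every library. The untested Snap25 had 0.734 and 0.371 CPM with carfilzomib and 0.162 and 0.325 CPM with vehicle, and Stmn2 had 0.472 and 0.424 CPM with carfilzomib and 0.162 and 0.325 CPM with vehicle. Of 5 Schwann cell markers 4 were tested, of which 1 fell and 0 rose. That list summed to 258 and 265 CPM with carfilzomib and 383 and 373 CPM with vehicle.

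Usp14 (gene ID 291796) encodes a USP that docks on the cap of the proteasome and trims chains from its substrates. It was at 302 and 311 CPM with carfilzomib and 119 and 115 CPM with vehicle. The groups did not overlap. The level was 2.61-fold higher, a log2 fold change of 1.39 (SE 0.04, edgeR adjusted p 1.29e-12). Uchl5 (gene ID 360853), also bound to the proteasome cap, had 15.5 and 15.5 CPM with carfilzomib and 14.9 and 14.3 CPM with vehicle. All carfilzomib values exceeded the vehicle values, but the difference did not pass, at 0.08 (SE 0.09, edgeR adjusted p 0.468). Psmd14, the JAMM protease built into the cap and not among the 75 genes, had 119 and 132 CPM with carfilzomib and 35.8 and 30.0 CPM with vehicle. The 3 proteases of the cap thus had log2 fold changes of 1.93 for Psmd14, 1.39 for Usp14 and 0.08 for Uchl5, and the differences between them were not tested. Adrm1, the cap subunit that recruits Uchl5, had 303 and 293 CPM with carfilzomib and 143 and 157 CPM with vehicle, a log2 fold change of 0.99 (SE 0.05, edgeR adjusted p 1.81e-10).

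**Figure D2:**
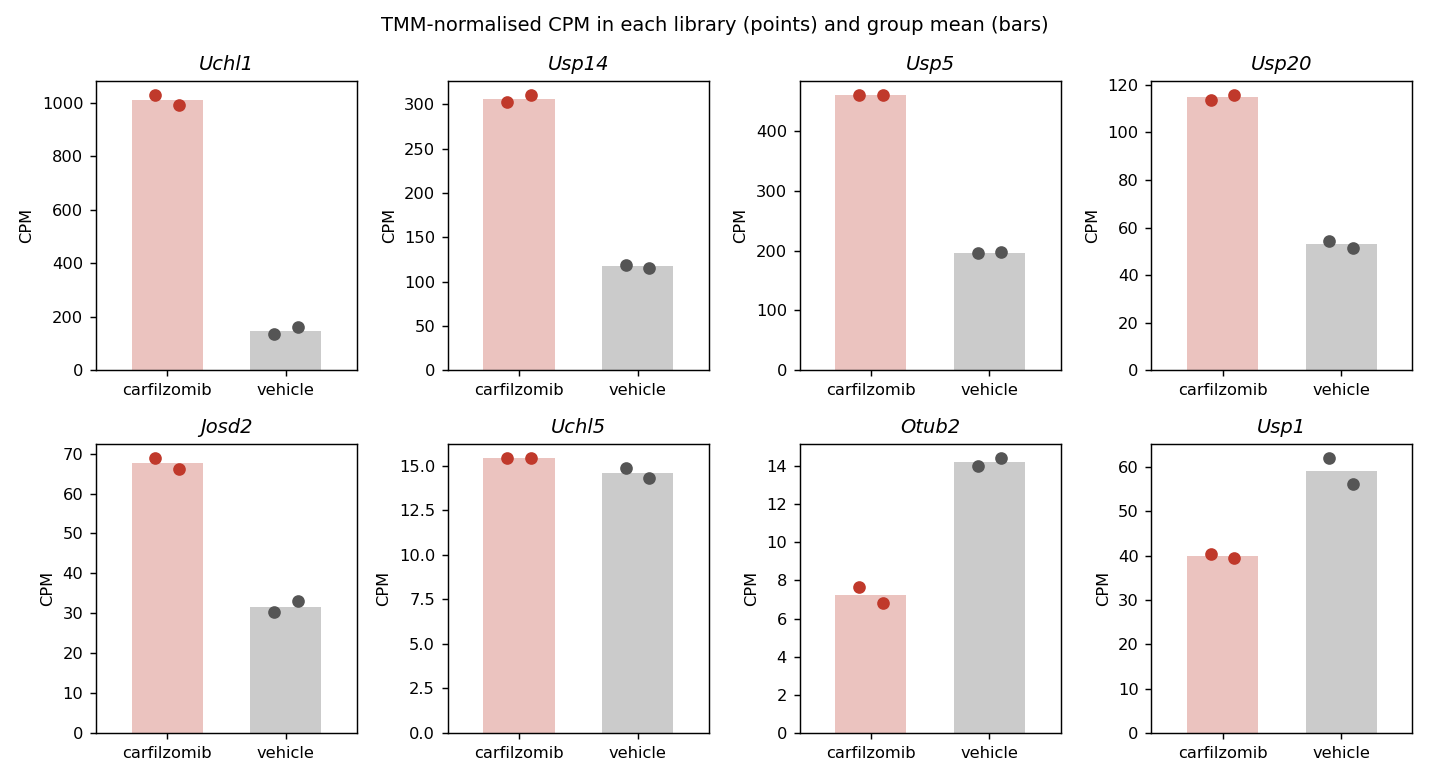
CPM (y axis, linear from 0) of 8 genes in each library (points) with the group mean (bars), carfilzomib left of vehicle, n = 2 per group. Uchl1, Usp14, Usp5, Usp20 and Josd2 were higher with carfilzomib, Otub2 and Usp1 were lower, and Uchl5 did not pass the test.

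The enzymes of free ubiquitin chains both rose, beside 30.6% of all tested genes called higher. Usp5, which disassembles unanchored chains, was at 460.4 and 459.5 CPM with carfilzomib and 195 and 197 CPM with vehicle. Its carfilzomib libraries were nearly identical and stood clear of the vehicle libraries. The level was 2.34-fold higher, a log2 fold change of 1.23 (SE 0.04, edgeR adjusted p 1.85e-12). Usp13, a paralogue with little activity of its own in vitro, was at 174 and 173 CPM with carfilzomib and 130.3 and 127 CPM with vehicle, a log2 fold change of 0.43 (SE 0.04, edgeR adjusted p 6.17e-07). Usp5 and Usp13 differed by 0.80 (SE 0.06) in log2 fold change. Both have split reads, meaning estimated counts with decimals, so their reads may have been shared out between genes.

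A list of 5 enzymes covered those linked to VCP, the segregase that pulls ubiquitinated proteins out of complexes, or to degradation from the endoplasmic reticulum. All 5 were called higher, beside 30.6% of all tested genes, with 0.36 as the median log2 fold change. Vcpip1, a VCP-bound OTU enzyme needed for Golgi reassembly, was at 50.7 and 52.0 CPM with carfilzomib and 33.5 and 29.2 CPM with vehicle. The groups did not overlap, and the fit gave 0.71 (SE 0.07, edgeR adjusted p 4.41e-07) on the log2 scale. Yod1, another VCP-bound OTU enzyme, was at 2.62 and 3.71 CPM with carfilzomib and 2.10 and 1.79 CPM with vehicle. Its carfilzomib libraries lay apart from each other but above both vehicle libraries, with a log2 fold change of 0.70 (SE 0.25, edgeR adjusted p 0.0248). Leaving out carfilzomib replicate 2 gave 0.43 with an edgeR adjusted p of 0.267. The edgeR adjusted p was 0.0645 without vehicle replicate 1 and 0.148 without vehicle replicate 2, and DESeq2 gave 0.188. Usp25 and Usp19, enzymes of the endoplasmic reticulum pathway, rose by 0.24 and 0.20, and Usp25 has split reads.

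Atxn3, the Josephin protease whose polyglutamine tract is expanded in Machado-Joseph disease, rose more per length than in counts. It was at 31.9 and 37.1 CPM with carfilzomib and 27.6 and 26.1 CPM with vehicle, a log2 fold change of 0.36 (SE 0.08, edgeR adjusted p 0.00104). In FPKM it was at 8.47 and 10 with carfilzomib and 6.04 and 5.55 with vehicle, and the log2 ratio of these group means was 0.67. The length by which the authors had divided, recovered from the counts, the FPKM and the library totals, was 3807 and 3752 bases with carfilzomib and 4519 and 4635 bases with vehicle. There was no overlap, and the length fell by 17.4%. The FPKM are not TMM-scaled, which also adds to the gap between 0.67 and 0.36. For Uchl1, whose length was 978 bases in every library, FPKM gave 2.81 and counts 2.77 on the log2 scale. Among 64 genes of the set with at least 1 FPKM and 50 counts in every library, 1 (Atxn3) was shorter by more than 1.1 times without overlap and 0 were longer. Of all 11437 such genes 0.437% were shorter and 0.455% longer by that rule. Values for single transcripts were not analysed here. Usp2 came next, with a length that fell by 5.12%.

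**Figure D3:**
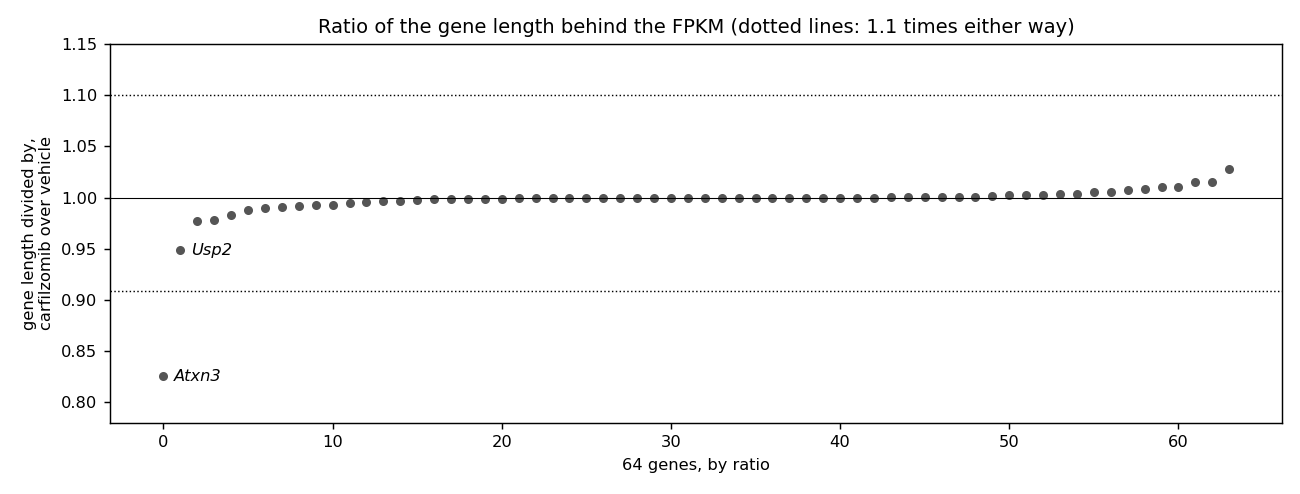
Ratio of the gene length behind the authors' FPKM, carfilzomib over vehicle (y axis, not from 0), for the 64 genes with enough reads, ordered by ratio (x axis). Atxn3 lies at 0.826, below the dotted line that marks 1.1 times, while Usp2 is at 0.949 and the others stay close to 1.

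Enzymes of endosomes and membrane traffic rose in 5 of 6 cases, beside 30.6% of all tested genes called higher. The median log2 fold change of this list was 0.61. Usp20, which acts on the beta2-adrenergic receptor among other cargo, was at 114 and 116 CPM with carfilzomib and 54.5 and 51.5 CPM with vehicle. The groups did not overlap, and the level was 2.17-fold higher, a log2 fold change of 1.12 (SE 0.06, edgeR adjusted p 2.46e-10). Its paralogue Usp33 was at 94.2 and 101 CPM with carfilzomib and 67.3 and 57.5 CPM with vehicle, a log2 fold change of 0.65 (SE 0.07, edgeR adjusted p 4.65e-06). Usp32, an enzyme of the Golgi and endosomes, was at 99.4 and 101 CPM with carfilzomib and 59.4 and 57.1 CPM with vehicle, a log2 fold change of 0.78 (SE 0.06, edgeR adjusted p 1.3e-08). Usp8, which spares receptors from lysosomal sorting, was at 89.9 and 88.6 CPM with carfilzomib and 61.5 and 59.0 CPM with vehicle, a log2 fold change of 0.57 (SE 0.06, edgeR adjusted p 5.17e-07). Each of these stood above vehicle in both carfilzomib libraries, as did 39.8% of all tested genes. Stambpl1, a JAMM enzyme specific for lysine 63-linked chains, was at 28.3 and 29.1 CPM with carfilzomib and 20.2 and 19.6 CPM with vehicle, a log2 fold change of 0.53 (SE 0.07, edgeR adjusted p 1.87e-05). Its paralogue Stambp, which has split reads, was at 29.1 and 29.1 CPM with carfilzomib and 26.6 and 25.8 CPM with vehicle and missed the threshold at 0.15 (SE 0.07, edgeR adjusted p 0.0647). Hgs and Stam, subunits of the endosomal sorting complex that works with Usp8 and Stambp, rose by 0.60 and 0.38.

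The Josephin family rose in all 3 members, beside 30.6% of all tested genes called higher, with Josd2 ahead of Josd1 and Atxn3. Josd2, a small and little-studied protease, was at 69.0 and 66.1 CPM with carfilzomib and 30.2 and 33.1 CPM with vehicle. Without overlap between groups, the level was 2.13-fold higher, a log2 fold change of 1.09 (SE 0.07, edgeR adjusted p 2.36e-09). Josd1, a membrane-associated paralogue, was at 71.4 and 68.6 CPM with carfilzomib and 45.2 and 49.5 CPM with vehicle, a log2 fold change of 0.56 (SE 0.06, edgeR adjusted p 2.36e-06). The difference between Josd2 and Josd1 was 0.53 (SE 0.09).

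Of 10 enzymes of NF-kB, ISG15 and innate signalling 5 rose, 2 fell and 3 missed the threshold, beside 30.6% higher and 30.1% lower of all tested genes. Otud7b, which acts on TRAF3 and has split reads, was at 130.5 and 128 CPM with carfilzomib and 82.8 and 79.6 CPM with vehicle, a log2 fold change of 0.67 (SE 0.05, edgeR adjusted p 2.27e-08). Cyld, a tumour suppressor that removes linear and lysine 63-linked chains, was at 50.2 and 55.4 CPM with carfilzomib and 37.8 and 34.7 CPM with vehicle, a log2 fold change of 0.54 (SE 0.07, edgeR adjusted p 7.83e-06). Usp15, which acts in TGF-beta signalling, was at 102 and 105 CPM with carfilzomib and 76.0 and 69.8 CPM with vehicle, a log2 fold change of 0.51 (SE 0.06, edgeR adjusted p 2.02e-06). In all 3 genes both carfilzomib libraries lay above both vehicle libraries, as in 39.8% of all tested genes. Otud5, and Otub1, which also inhibits ubiquitin-conjugating enzymes, rose by 0.31 and 0.23. Otub2 was at 7.65 and 6.83 CPM with carfilzomib and 14.0 and 14.5 CPM with vehicle. Both carfilzomib libraries were lower, with a log2 fold change of -0.97 (SE 0.12, edgeR adjusted p 3.45e-06). Usp18, the protease for the ubiquitin-like modifier ISG15, was at 0.577 and 0.424 CPM with carfilzomib and 1.62 and 1.14 CPM with vehicle. These levels rest on 11 and 8 counts with carfilzomib and 30 and 21 counts with vehicle. The fit gave -1.45 (SE 0.39, edgeR adjusted p 0.00473) on the log2 scale, and limma on log2(FPKM + 1) gave -0.50. Leaving out vehicle replicate 1 gave an edgeR adjusted p of 0.0967, leaving out carfilzomib replicate 2 gave 0.0556, and DESeq2 gave 0.088. Macrophage markers were read for an immune cell type that such cultures can hold. They fell in 4 of 5 tested genes and rose in 1, beside 30.1% lower and 30.6% higher of all tested genes. The macrophage list summed to 47.0 and 42.3 CPM with carfilzomib and 53.1 and 55.4 CPM with vehicle. The part of macrophages in the falls of Usp18 and Otub2 was not tested.

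Among enzymes of DNA repair and p53, 3 of 11 rose, 2 fell and 6 missed the threshold, beside 30.6% higher and 30.1% lower of all tested genes, so the share that rose was near that of all genes. Usp45, which acts in the repair of DNA crosslinks and has split reads, was at 72.0 and 69.98 CPM with carfilzomib and 36.1 and 34.0 CPM with vehicle. The groups did not overlap, and the level was 2.02-fold higher, a log2 fold change of 1.02 (SE 0.06, edgeR adjusted p 3.13e-09). Usp7, which acts on MDM2 and p53 and has split reads, was at 195 and 206 CPM with carfilzomib and 158 and 153 CPM with vehicle, a log2 fold change of 0.36 (SE 0.04, edgeR adjusted p 4.93e-06). Its paralogue Usp47 was at 239.6 and 239 CPM with carfilzomib and 182 and 174 CPM with vehicle, a log2 fold change of 0.43 (SE 0.04, edgeR adjusted p 6.06e-07). Usp1, which takes ubiquitin off FANCD2 and PCNA, was at 40.3 and 39.4 CPM with carfilzomib and 62.1 and 56.2 CPM with vehicle. Both carfilzomib libraries were lower, with a log2 fold change of -0.57 (SE 0.07, edgeR adjusted p 2.9e-06). Wdr48, the activating partner of Usp1, Usp12 and Usp46, missed the threshold at 0.07 (SE 0.06, edgeR adjusted p 0.299). Usp28, a stabiliser of MYC, was at 68.0 and 71.1 CPM with carfilzomib and 94.9 and 91.6 CPM with vehicle, a log2 fold change of -0.42 (SE 0.06, edgeR adjusted p 9.73e-06).

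Histone and chromatin enzymes had a median of -0.06, and of 8 tested genes 3 rose, 2 fell and 3 missed the threshold. Both shares were near those of all tested genes, 30.6% higher and 30.1% lower. Usp16 and Usp3, which act on ubiquitinated histone H2A, rose by 0.45 and 0.36, and Usp16 has split reads. Bap1, the histone H2A enzyme that opposes polycomb, rose by 0.15 with an edgeR adjusted p of 0.00851, a call that was lost without either carfilzomib library (highest adjusted p 0.0777). Usp22, the ubiquitin protease of the SAGA coactivator, was at 55.3 and 56.8 CPM with carfilzomib and 71.7 and 69.9 CPM with vehicle, a log2 fold change of -0.34 (SE 0.06, edgeR adjusted p 0.000144). Usp21 fell by 0.28, a call that DESeq2 did not make (adjusted p 0.0508). Usp51, which has split reads, had the widest difference of the list at 0.734 and 0.954 CPM with carfilzomib and 1.13 and 1.35 CPM with vehicle. The libraries did not overlap, but the fit gave -0.55 (SE 0.35, edgeR adjusted p 0.182).

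Of the 2 mitochondrial enzymes, Usp30, which opposes mitophagy from the outer membrane, was at 33.0 and 31.2 CPM with carfilzomib and 27.2 and 27.6 CPM with vehicle, a log2 fold change of 0.23 (SE 0.07, edgeR adjusted p 0.00937). Its edgeR adjusted p was 0.112 without carfilzomib replicate 1, and DESeq2 gave 0.141. Usp35 was at 6.03 and 6.25 CPM with carfilzomib and 5.66 and 7.20 CPM with vehicle, overlapped, and missed the threshold.

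**Figure D4:**
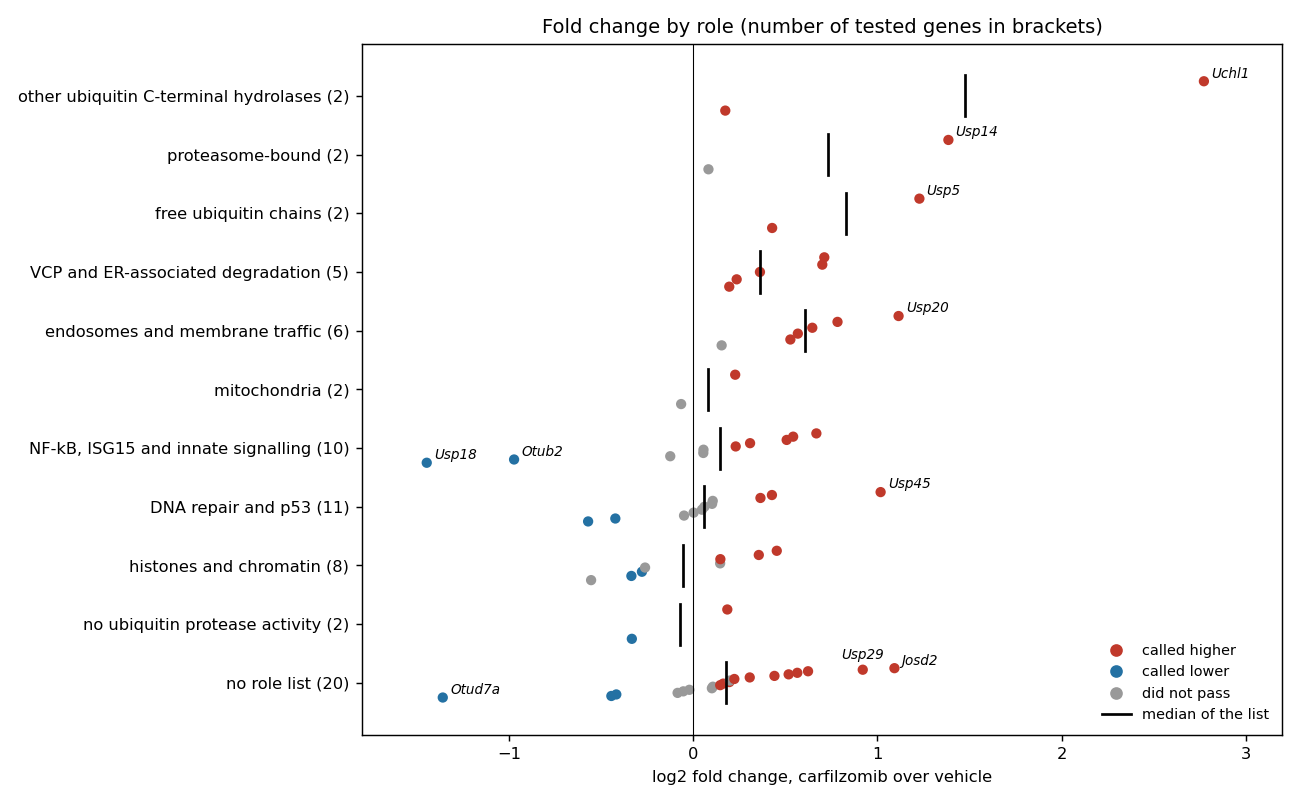
Log2 fold change of carfilzomib over vehicle (x axis) of each tested gene (points) in its role list (y axis, with the number of genes), coloured by call, with the median of the list as a black bar. The medians of endosomal and VCP-linked enzymes lie at 0.61 and 0.36, and those of DNA repair and chromatin enzymes at 0.06 and -0.06.

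Of 20 tested genes in no role list 11 rose, 3 fell and 6 missed the threshold, beside 30.6% higher and 30.1% lower of all tested genes. Of these calls, the rises of Usp24, Usp40, Usp53 and Usp54 were lost under 7, 5, 6 and 8 of 14 alternatives, and the fall of Usp31 was lost with DESeq2 (adjusted p 0.0743). Usp29, known for expression in brain and testis, was at 12.5 and 13.1 CPM with carfilzomib and 6.89 and 6.66 CPM with vehicle, a log2 fold change of 0.92 (SE 0.12, edgeR adjusted p 7.02e-06), and has split reads. Usp9x, a large X-linked enzyme with split reads, was at 461 and 483 CPM with carfilzomib and 323 and 289 CPM with vehicle, a log2 fold change of 0.62 (SE 0.05, edgeR adjusted p 2.93e-07). Otud6b, an enzyme linked to proteasome assembly, was at 68.5 and 70.1 CPM with carfilzomib and 48.0 and 48.8 CPM with vehicle, a log2 fold change of 0.52 (SE 0.06, edgeR adjusted p 2.47e-06). Both carfilzomib libraries stood above vehicle for each of these, as for 39.8% of all tested genes. Usp34, an enzyme of Wnt signalling with split reads, rose by 0.44. Usp36, a nucleolar enzyme, was at 28.6 and 30.8 CPM with carfilzomib and 40.4 and 40.4 CPM with vehicle, a log2 fold change of -0.44 (SE 0.07, edgeR adjusted p 3e-05). Otud7a had 8 and 9 counts with carfilzomib and 26 and 17 counts with vehicle, with a log2 fold change of -1.36 (SE 0.41, edgeR adjusted p 0.01). Leaving out vehicle replicate 1 raised the edgeR adjusted p to 0.166, leaving out carfilzomib replicate 1 raised it to 0.0746, and DESeq2 gave 0.142. Among the genes without a working protease, Usp6nl fell by 0.33 and Usp39 rose by 0.18, a call that was lost with DESeq2 and without carfilzomib replicate 1, carfilzomib replicate 2 or vehicle replicate 1 (highest adjusted p 0.119). Without them the counts were 38 higher and 9 lower of 68.

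Several paralogues parted in size or direction. Pairs were picked with their values known, so differences have a standard error and no test. For these and the pairs given above, that standard error treats both genes as independent, though they were measured in the same libraries. Usp25 rose and Usp28 fell, with 0.66 (SE 0.08) between them on the log2 scale. Otub1 rose and Otub2 fell, 1.20 (SE 0.12) apart. Otud7b and Otud7a, which is near the limit of detection, were 2.03 (SE 0.41) apart. Usp15 stood 0.46 (SE 0.08) above Usp11. Usp4 against Usp15 gave -0.45 (SE 0.08). Usp7 and Usp47 were close, at -0.06 (SE 0.06), as were Usp12 and Usp46, at -0.05 (SE 0.13).

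**Figure D5:**
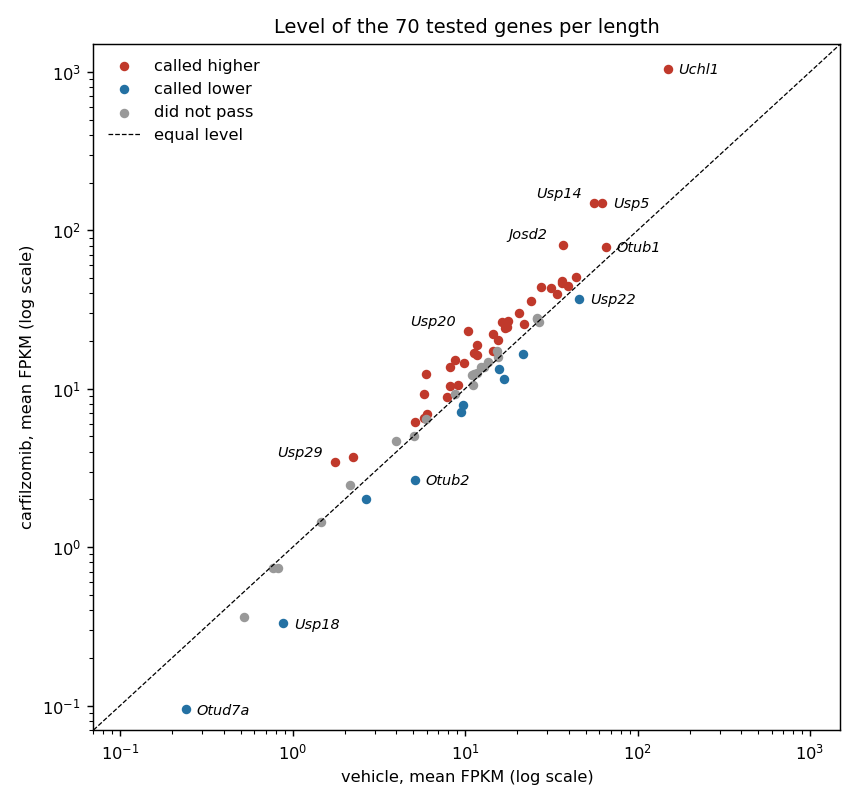
Mean FPKM with carfilzomib (y axis) against mean FPKM with vehicle (x axis), both on log scales, for the 70 tested genes, coloured by call, with a dashed line at equal levels. Uchl1 lies farthest above the line, at 1045 FPKM with carfilzomib and 149 FPKM with vehicle.

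In levels per length the set was led by few genes. The median FPKM of the 70 tested genes was 14.7 and 14.6 with carfilzomib and 12.5 and 11.5 with vehicle. Over 50 FPKM in both libraries of a group were 6 genes with carfilzomib and 4 with vehicle. After Uchl1, the highest means with carfilzomib were 149 FPKM for Usp5 and 148 FPKM for Usp14, and the libraries of these genes overlapped in level. Josd2 followed at 81.2 FPKM. With vehicle, Otub1 came next to Uchl1 at 65.5 FPKM, followed by Usp5 at 62.2 FPKM and Usp14 at 55.6 FPKM. Without Uchl1 the other 74 genes summed to 1549 and 1566 FPKM with carfilzomib and 1141 and 1118 FPKM with vehicle.

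Genes related to the set but outside its symbols were counted in the same fit. Of 14 further enzymes, most of them deubiquitinases, 7 rose, 2 fell and 5 missed the threshold, beside 30.6% higher and 30.1% lower of all tested genes, and their median was 0.18. Psmd14 rose with a log2 fold change of 1.93 (SE 0.08, edgeR adjusted p 3.83e-09). Cops5, the JAMM protease of the COP9 signalosome that removes NEDD8, was at 177 and 179.6 CPM with carfilzomib and 73.4 and 73.3 CPM with vehicle, a log2 fold change of 1.28 (SE 0.05, edgeR adjusted p 6.12e-12), and has split reads. Otulin, which removes linear chains, rose by 0.64, whereas Tnfaip3, the NF-kB inhibitor A20, fell by 0.79. Of 18 partner proteins 10 rose, 0 fell and 8 missed the threshold, beside the same shares of all genes, and their median was 0.20. Adrm1 and Hgs, given above, were among them. Abraxas2, the scaffold of the cytoplasmic Brcc3 complex, was at 79.0 and 76.4 CPM with carfilzomib and 49.4 and 45.1 CPM with vehicle, a log2 fold change of 0.72 (SE 0.06, edgeR adjusted p 1.42e-07). Brcc3 itself was at 40.4 and 38.0 CPM with carfilzomib and 40.2 and 38.2 CPM with vehicle and overlapped.

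The promoter search covered 60 of the 75 genes, those with an entry in the RefSeq table. TGACNNNGC, the core of the antioxidant response element, occurred on either strand in 11 of the 60, 18.3%, against 13.1% of 27457 genes. It was in 8 of 31 genes that rose, 25.8%, in 1 of 9 that fell and in 2 of 20 that missed the threshold or were not tested. Besides Usp14 and Usp20, the windows of Josd2, Usp13, Usp32, Usp34, Usp3 and Bap1 held it among genes that rose. So did those of Usp36, which fell, and of Uchl5 and Usp2, which missed the threshold. GAANNTTC, the core of the heat shock element, occurred in 2 of the 60, 3.33%, against 9.09% of all genes. The shares of all genes are not like for like with those of the set. A gene counted if any of its entries held the letters, and 6012 entries repeat a gene. Of the 60 genes, Usp50 alone had several entries. The 27457 genes also include genes not tested here. These are matches of letters only, and no binding was measured.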

How the data were processed

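RNA was sequenced from 4 libraries, 2 per group, grouped by their treatment labels; columns named as control were read as vehicle. The authors deposited estimated counts for each gene without normalization, with decimals for 28.5% to 28.9% of genes in a library (tolerance 1e-06). They also deposited FPKM, used for levels, and TPM, per the file headers; TPM and the authors' group means (10 columns) were not used. The authors' deposited comparison lists log2 fold changes, p-values and q-values from DESeq2, per the file headers, for 6063 genes. It holds 36 of the 75 genes, 30 higher and 6 lower, beside 6063 listed genes and 18699 genes in the expression table. The split by direction over all listed genes was not counted. All 36 had the direction edgeR gave, but both fits used the same 4 libraries, so this is no separate support. The submitters' processing notes name featureCounts 1.6.0, HISAT, Bowtie2, cutadapt 2.0, FastQC 0.11.8, DESeq2, R 3.3.2 and build Rnor_6.0, without their roles. Promoters, from build GRCr8, were matched by gene ID.

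Counts were rounded and filtered with filterByExpr (minimum count 10, minimum total 15). edgeR 4.0.16 in R 4.3.3 fitted 14519 genes (TMM, robust quasi-likelihood F test, Benjamini-Hochberg at 0.05 over all of them), with a biological coefficient of variation of 0.0465. A standard error (SE) is the log2 fold change over the square root of F. Libraries of a group differed beyond sampling noise (chi-square per degree of freedom 2.99 for carfilzomib, 3.32 for vehicle). Of the tested genes of the set, 22 have split reads. Genes and lists were chosen with earlier results of these data known. Genes named by rule were Uchl1, Usp14 and Uchl5, called genes with a change of at least 0.5 (log2) and a mean of at least 1 CPM, the largest change in each role list, the 3 highest and 3 lowest mean FPKM, and 2 called genes in each outside list; others were chosen after their values were seen, as was the measure of gene length. Most marker genes are given only as sums of their list. The code was tested on simulated counts. Alternatives were DESeq2 1.42.0, limma-voom, limma 3.58.1 on log2(FPKM + pseudocount), other scalings and filters, a replicate block, each library left out, and genes without split reads.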

Additional observations from a re-analysis of the deposited data

How the results depend on the processing

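The counts of 39 genes higher and 10 lower were recomputed under 14 alternatives, and of the 49 calls 36 were kept under every one that could test the gene; no direction turned. The 13 others were Bap1, Otud7a, Uchl3, Usp18, Usp21, Usp24, Usp30, Usp31, Usp39, Usp40, Usp53, Usp54 and Yod1. With DESeq2 31 were higher and 6 lower, and 44.7% of all genes were called in place of 60.7%; the cause was not tested. Leaving out 1 library at a time gave medians of 0.17 to 0.19. Scaling by library size alone gave a median of 0.22, with 0.04 over all genes. Among 48 genes without split reads 28 were higher and 9 lower, and of all 9317 such genes 66.6% were called in either direction. With log2(FPKM + 0.1) 36 were higher and 10 lower, while 58.1% of all genes were called. With log2(FPKM + 1) 36 were higher and 9 lower, while 58.2% of all genes were called. In the latter fit Otud7a was at -0.18 (limma adjusted p 0.0795) and Usp18 at -0.50 (limma adjusted p 0.00406). With a replicate block 35 were higher and 10 lower, while 56.7% of all genes were called. The labels do not say that equal numbers pair cultures, and deviations of same-numbered libraries correlated at -0.0023. Leaving out Usp6nl and Usp39 was chosen after seeing the data. Log2 fold changes ranged from 2.66 to 2.90 for Uchl1, 1.36 to 1.42 for Usp14, 1.22 to 1.26 for Usp5 and 1.07 to 1.16 for Usp20, all called throughout. Low counts limit Usp18, Otud7a, Yod1 and Usp51.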
